A study of Homo sapiens with 6 samples.

Results

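The genes described here are 40 genes of the ATF4 branch of the integrated stress response, 12 of which encode cytosolic tRNA synthetases. They were chosen by symbol from the deposited gene table, which held 39 of them among 12499 genes, and NUPR1 had no entry. All 39 passed the filter on low counts, as did 12462 genes in total. The libraries came from HaCaT cells, an immortalized human keratinocyte line, that had been kept with lentivirus for 48 hours and then for 24 hours in high glucose (HG, 25 mM). The 3 libraries labeled LV-NC received the control lentivirus and the 3 labeled LV-ATF7 received a lentivirus carrying the human ATF7 coding sequence behind a vector promoter. All 6 libraries were infected and all were in HG, so neither uninfected cells nor normal glucose entered the comparison. The LV-NC libraries carry the names A1, A2 and A4 and are called replicates 1, 2 and 3, and the labels do not state that replicates were separate cultures, so p-values measure only the spread between these libraries.

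The integrated stress response begins when kinases such as PERK and GCN2 phosphorylate the translation initiation factor eIF2α, which lowers protein synthesis while favoring translation of ATF4 mRNA through its upstream open reading frames. ATF4 protein then dimerizes with C/EBP family members and induces genes for amino acid import, serine and asparagine synthesis, tRNA charging and, under prolonged stress, DDIT3 (CHOP). The phosphatase subunits GADD34 (PPP1R15A) and CReP (PPP1R15B) reverse the phosphorylation. Keratinocytes carry this response as they do the other arms of the unfolded protein response, run by ATF6 and by IRE1 with XBP1. Because ATF4 is controlled largely at translation, its mRNA level is not a measure of its protein.

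The libraries held 16686472 to 20562768 counts. ATF7 itself went against the labels: it was at 50.6, 46.4 and 52.2 CPM (the gene's count scaled to a common library total, with TMM factors) in LV-NC against 21.9, 25.7 and 28.0 CPM under the LV-ATF7 label, a log2 fold change of -0.98 ± 0.12 (SE; adjusted p = 0.00019). Of the annotated ATF7 exon bases, 43.9% also belong to other genes. The direction of every group difference below is therefore that of the labels alone. LV-NC replicate 1 (A1) stood apart from the other LV-NC libraries, with a chi-square per gene of 75.4 and 67.6 against replicates 2 and 3, where these differed from each other by 3.72 and the LV-ATF7-labeled libraries by 2.85 to 10.4. The summed level of 8 keratinocyte markers was 1292 to 1854 CPM in LV-NC and 5341 to 5650 CPM in the LV-ATF7-labeled libraries, a difference carried mostly by KRT5 (mean 266 and 3354 CPM). Of the 8 markers 6 were higher and CDH1 did not pass. The defining basal keratin KRT14 was at 0.37, 12.5 and 11.3 CPM in LV-NC and at 1.45, 1.38 and 1.82 CPM in the LV-ATF7-labeled libraries. It passed as lower (log2 fold change -2.37, edgeR adjusted p = 0.046), but the groups overlapped, with A1 the lowest library. The table held 2 of 6 fibroblast, 3 of 6 monocyte or macrophage, 2 of 5 melanocyte and 2 of 5 endothelial markers, and the endothelial cadherin CDH5 was at 0.64 to 4.86 CPM in LV-NC and 81.0 to 86.2 CPM in the LV-ATF7-labeled libraries. The part of these marker differences in the results below was not tested.

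Of the 39 members, 26 passed the test between groups (the quasi-likelihood test of edgeR, p-values adjusted by Benjamini-Hochberg over all genes tested, adjusted p under 0.05). That share of 66.7% stood beside 67.6% of all genes tested. The members higher in the LV-ATF7-labeled libraries numbered 15, or 38.5%, beside 34.7% of all genes, and those lower numbered 11, or 28.2%, beside 32.9%. The groups did not overlap for 27 members, or 69.2%, beside 72.7% of all genes. The median log2 fold change was 0.05 over the members and 0.00 over all genes, and single members ran from -2.35 to 1.47. With the counts scaled by library size alone, which moved the median of all genes to -0.16, 10 members were higher and 12 lower. The number of changed members was thus close to the background, and what follows describes which members moved and in which direction. In bulk libraries, fewer cells expressing a gene and less RNA per cell cannot be told apart.

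**Figure D1:**
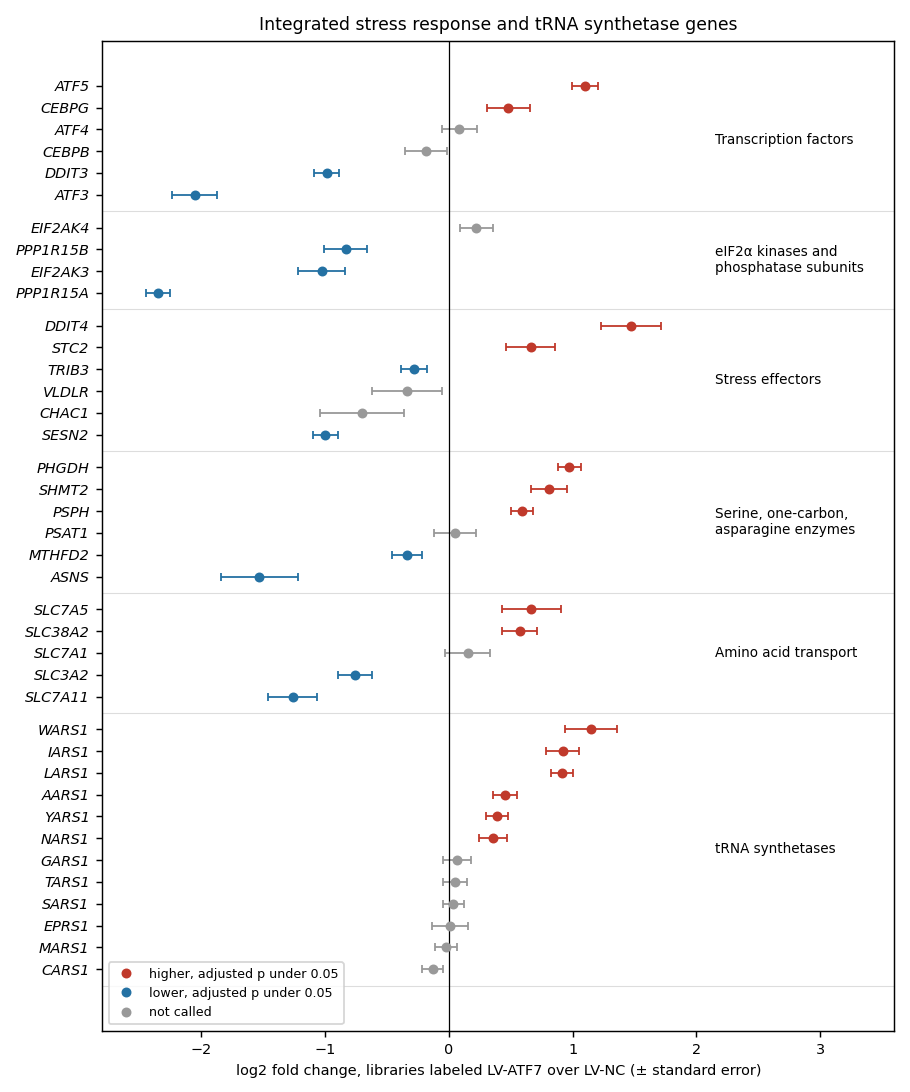
Log2 fold change of each of the 39 members, libraries labeled LV-ATF7 over LV-NC, by role, with bars for the standard error and color for the call at an adjusted p under 0.05. PPP1R15A and ATF3 lie farthest to the left and DDIT4 farthest to the right, and of the tRNA synthetases 6 are marked higher and 0 lower.

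Binding sites of ATF4 with a C/EBP partner share the core TGATGNAA, so the promoters of the members were searched for it. Windows from 250 bases before to 50 bases after each RefSeq transcription start (GRCh38.p14) were present for 34 members. The 8-letter core, on either strand, lay in the windows of 14 of them, or 41.2%, and in those of 4.46% of 27305 genes with a window. Counted by window, it lay in 27.5% of 51 member windows and 3.62% of 35116 windows. The members were chosen as genes of the ATF4 response, and the 27305 genes include many not tested here. These shares are therefore a description of the list and carry no test. The stretches below belong to the members that hold the core and changed by at least 1.5-fold between groups, with CHAC1 added after its values were seen because it differed most in A1. Capitals mark the core or, as TTNCATCA, its reverse complement, and each stretch is written in the direction of the gene.
ATF3, chr1:212565186-212565253, plus strand: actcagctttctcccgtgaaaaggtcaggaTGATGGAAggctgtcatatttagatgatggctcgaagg
ASNS, chr7:97872458-97872487, minus strand: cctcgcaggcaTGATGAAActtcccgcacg
IARS1, chr9:92293692-92293721, minus strand: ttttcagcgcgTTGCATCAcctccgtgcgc
PPP1R15B, chr1:204412007-204412067, minus strand: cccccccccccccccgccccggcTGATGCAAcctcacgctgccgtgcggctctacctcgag
SLC3A2, chr11:62881725-62881748, plus strand: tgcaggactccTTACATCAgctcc
CHAC1, chr15:40953251-40953280, plus strand: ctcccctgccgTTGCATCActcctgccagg

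The core began at -191 in ATF3, -68 in ASNS, -13 in IARS1, -227 in PPP1R15B and -209 in CHAC1, counted from the RefSeq transcription start of the window. In SLC3A2 it began at 38, after that start. By the GENCODE gene positions given here, the starts differ. The stretches of ASNS, IARS1, CHAC1 and SLC3A2 lie within the annotated gene, and only those of ATF3 and PPP1R15B lie before it. The 6 sequences differ outside the core. The genes that carry it did not move one way. Of the 14 members with the core, 4 were higher in the LV-ATF7-labeled libraries, 4 were lower and 6 did not pass the test, with a median log2 fold change of 0.01. Of the 20 members with a window and no core, 7 were higher, 6 were lower and 7 did not pass, with a median of 0.04. Of all genes tested, 34.7% were higher and 32.9% lower. These counts carry no test and are not read as a result about the core. A match describes letters in a window and not a bound site.

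Among the transcription factors, ATF3 and DDIT3 were lower and ATF5 and CEBPG higher in the LV-ATF7-labeled libraries, while ATF4 and CEBPB did not pass the test. ATF4 (chr22:39519695-39522685 in GRCh38, as are all gene positions here, the bZIP factor at the head of the response) was at 641, 472 and 457 CPM in LV-NC and at 547, 542 and 574 CPM in the LV-ATF7-labeled libraries. The LV-NC libraries lay on both sides of the others, with A1 highest of all 6. Its log2 fold change was 0.08 ± 0.14 (SE; adjusted p = 0.62). Without A1 it was 0.24 with an adjusted p of 0.0015, so this call depended on a single library.

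ATF3 (chr1:212565334-212620777), a bZIP repressor induced by stress and whose promoter stretch is shown above, was at 848, 551 and 548 CPM in LV-NC. It was at 151, 161 and 157 CPM in the LV-ATF7-labeled libraries. Every LV-NC library was above every LV-ATF7-labeled library, and A1 was again the highest. The level was 4.15-fold lower (log2 fold change -2.05 ± 0.18 SE, adjusted p = 3.4e-05), and without A1 the log2 fold change was -1.83. DDIT3 (chr12:57516588-57521737), which encodes the pro-apoptotic factor CHOP, was at 72.7, 68.9 and 61.2 CPM in LV-NC and at 35.4, 33.7 and 33.2 CPM in the others. Here A1 stood near its replicates, and the groups did not overlap. DDIT3 fell by 0.99 on the log2 scale (SE 0.10, adjusted p = 7.3e-05), with 39.6% of its exon bases shared with other genes.

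ATF5 (chr19:49928702-49933935), a close relative of ATF4 that is likewise controlled by translation, moved the other way. It was at 22.0, 21.2 and 19.2 CPM in LV-NC and at 42.5, 44.9 and 46.3 CPM in the LV-ATF7-labeled libraries, 2.14-fold higher (log2 fold change 1.10 ± 0.10 SE, adjusted p = 5.0e-05). The groups did not overlap, and 23.7% of ATF5 exon bases are shared with other genes. CEBPG, a C/EBP partner of ATF4, was at 102, 67.2 and 65.2 CPM in LV-NC and at 110, 113 and 104 CPM in the others. A1 lay just under the LV-ATF7-labeled libraries and its replicates far under them, and the log2 fold change was 0.48 ± 0.17 (SE; adjusted p = 0.037). This call was lost when any library other than A1 was left out (adjusted p 0.081 to 0.17). It was also lost with at least 10 counts in every library (0.056) and with library size only (0.19). CEBPB, another C/EBP partner, was at 248, 162 and 166 CPM in LV-NC and at 161, 161 and 185 CPM in the LV-ATF7-labeled libraries (log2 fold change -0.19 ± 0.17 SE, adjusted p = 0.35). Apart from A1, the CEBPB levels of both groups lay together.

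**Figure D2:**
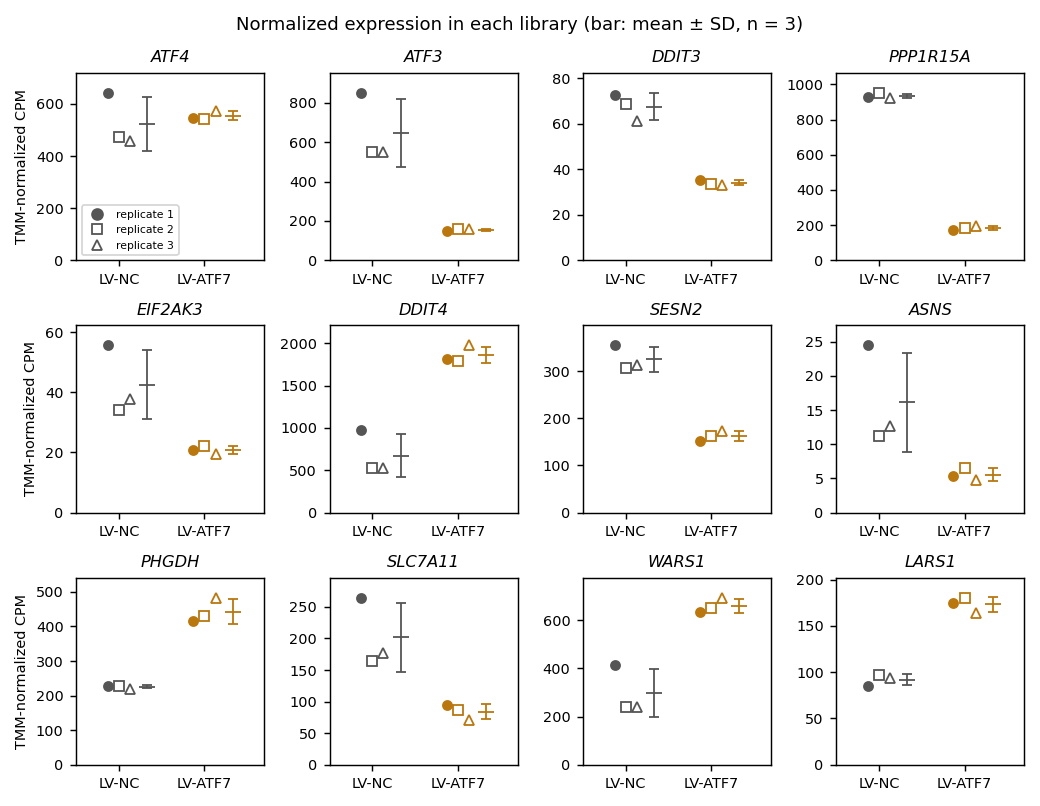
TMM-normalized CPM of 12 members in each library, with separate axes that start at 0, filled circles for replicate 1 of either group, and bars for the mean ± SD of 3 libraries. ATF3, DDIT3, PPP1R15A, EIF2AK3, SESN2, ASNS and SLC7A11 are lower and DDIT4, PHGDH, WARS1 and LARS1 higher in the libraries labeled LV-ATF7, with no overlap, while the ATF4 values overlap.

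Among the 4 members that act on eIF2α, 1 kinase gene and both regulated phosphatase subunit genes were lower in the LV-ATF7-labeled libraries. That was 75% of them, beside 32.9% of all genes, and none was higher. Outside the members, the eIF2α kinase genes EIF2AK2 and EIF2AK1 were higher, by 0.61 and 0.22 on the log2 scale (adjusted p = 0.00074 and 0.041, same test). EIF2S1, which encodes eIF2α, fell by 0.56 (adjusted p = 0.0023). PPP1R15A (chr19:48872392-48876057), the stress-induced phosphatase subunit GADD34, was at 929, 950 and 924 CPM in LV-NC and at 171, 185 and 195 CPM in the LV-ATF7-labeled libraries. The replicates of each group lay close together, A1 included, and the groups were far apart. The level was 5.09-fold lower (log2 fold change -2.35 ± 0.10 SE, adjusted p = 1.4e-06), the largest change in either direction among the 39 members. PPP1R15B (chr1:204403387-204411791), which encodes the constitutive subunit CReP, was at 321, 206 and 208 CPM in LV-NC and at 144, 141 and 127 CPM in the others, a log2 fold change of -0.83 ± 0.18 (SE; adjusted p = 0.0035). A1 was the highest library and the groups did not overlap. Per kilobase of exon, the level of PPP1R15A was 4.89, 7.79 and 7.51 times that of PPP1R15B in LV-NC and 2.01, 2.22 and 2.59 times in the LV-ATF7-labeled libraries, a ratio chosen after the values were seen.

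EIF2AK3 (chr2:88556741-88627576), the endoplasmic reticulum kinase PERK, was at 55.6, 34.0 and 37.9 CPM in LV-NC and at 20.8, 22.3 and 19.5 CPM in the LV-ATF7-labeled libraries. The lowest LV-NC library was above the highest of the others, and the level was 2.04-fold lower (log2 fold change -1.03 ± 0.19 SE, adjusted p = 0.0016). Without A1 the log2 fold change was -0.80, and 15.1% of EIF2AK3 exon bases lie opposite another gene. EIF2AK4 (GCN2, the kinase that senses uncharged tRNA) was at 118, 83.7 and 91.4 CPM in LV-NC and at 115, 115 and 111 CPM in the others (log2 fold change 0.22 ± 0.13 SE, adjusted p = 0.17). Its A1 level stood with the LV-ATF7-labeled libraries, and without A1 the log2 fold change was 0.36 with an adjusted p of 0.00017.

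The stress effectors divided. DDIT4 (chr10:72273920-72276036), an inhibitor of mTORC1 signaling also known as REDD1, was at 970, 524 and 522 CPM in LV-NC and at 1818, 1787 and 1973 CPM in the LV-ATF7-labeled libraries. All 3 of the latter were above A1, which in turn was far above its replicates. DDIT4 was 2.77-fold higher (log2 fold change 1.47 ± 0.24 SE, adjusted p = 0.00092), and 1.81 on the log2 scale without A1, with 41.2% of its exon bases opposite another gene. SESN2, a sestrin that restrains mTORC1 when leucine is low, was at 355, 308 and 313 CPM in LV-NC and at 153, 162 and 173 CPM in the others. Its groups were well apart, with a log2 fold change of -0.998 ± 0.099 (SE; adjusted p = 6.3e-05). Thus 2 members that both act on mTORC1 moved in opposite directions.

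STC2, a secreted glycoprotein hormone, was at 102, 61.0 and 60.4 CPM in LV-NC and at 114, 115 and 123 CPM in the LV-ATF7-labeled libraries (log2 fold change 0.66 ± 0.20 SE, adjusted p = 0.018). A1 lay between its replicates and the other group, and the call was lost without LV-NC replicate 2, without LV-NC replicate 3 or without LV-ATF7 replicate 3 (adjusted p 0.069 to 0.082). TRIB3, a pseudokinase that feeds back on ATF4, had a log2 fold change of -0.28 ± 0.11 (SE; adjusted p = 0.041), and lost its call without LV-ATF7 replicate 1 or 2 (adjusted p 0.14 and 0.16) and in the fit with a replicate block (0.075). CHAC1 (chr15:40952962-40956519), which degrades glutathione, was at 315, 127 and 128 CPM in LV-NC and at 110, 108 and 132 CPM in the others. Apart from A1, all 5 libraries lay together. Its log2 fold change was -0.70 ± 0.34 (SE; adjusted p = 0.098), and -0.15 without A1. CHAC1 passed the test without LV-NC replicate 2 or 3 (adjusted p = 0.036 and 0.038). VLDLR, a lipoprotein receptor, was low throughout, at 7.07, 3.51 and 4.11 CPM in LV-NC and at 3.40, 4.18 and 4.04 CPM in the others, which overlapped (adjusted p = 0.32).

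Among the enzymes of serine, one-carbon and asparagine metabolism, PHGDH, PSPH and SHMT2 were higher, ASNS and MTHFD2 lower, and PSAT1 did not pass the test. PHGDH, which catalyzes the committed step of serine synthesis, was at 229, 227 and 220.0 CPM in LV-NC and at 416, 429 and 483 CPM in the LV-ATF7-labeled libraries (log2 fold change 0.97 ± 0.09 SE, adjusted p = 5.7e-05). The LV-NC libraries lay within a few percent of each other and under all of the others. PSPH, the last enzyme of that pathway, was higher by 0.59 ± 0.09 (log2, SE; adjusted p = 0.00056), and SHMT2, which turns serine into glycine and one-carbon units in mitochondria, by 0.81 ± 0.14 (adjusted p = 0.0014). PSAT1, the aminotransferase between PHGDH and PSPH, was at 443, 285 and 292 CPM in LV-NC and at 356, 360 and 341 CPM in the LV-ATF7-labeled libraries (log2 fold change 0.05 ± 0.17 SE, adjusted p = 0.80). Its A1 level was above and its other LV-NC levels under those of the other group, and without A1 the log2 fold change was 0.27 with an adjusted p of 0.00068.

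ASNS (chr7:97852118-97872542), which makes asparagine and is a classical ATF4 target, was at 24.5, 11.2 and 12.7 CPM in LV-NC and at 5.36, 6.58 and 4.76 CPM in the LV-ATF7-labeled libraries. The groups did not overlap and A1 was the highest by far. ASNS was 2.89-fold lower (log2 fold change -1.53 ± 0.31 SE, adjusted p = 0.0028), and -1.12 on the log2 scale without A1. Of its exon bases, 44.6% are shared with another gene on the same strand, so counting could have split its reads. MTHFD2, the mitochondrial folate enzyme after SHMT2, fell by 0.34 on the log2 scale (SE 0.12, adjusted p = 0.039). That call was lost when any LV-ATF7-labeled library was left out (adjusted p 0.063 to 0.13) and with upper quartile scaling (0.059). Of MTHFD2 exon bases, 33.2% lie opposite another gene. PSPH and ATF4 have near-identical pseudogene copies, so their counts are uncertain to that extent.

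Among the 5 amino acid transport genes, 2 were higher (40%, beside 34.7% of all genes), 2 lower (40%, beside 32.9%) and 1 did not pass. The heavy chain SLC3A2 and its light chain SLC7A11 were both lower, while the light chain SLC7A5 was higher. SLC3A2, the heavy chain that carries several light chains to the membrane, was at 1558, 2108 and 2068 CPM in LV-NC and at 1087, 1097 and 1206 CPM in the LV-ATF7-labeled libraries (log2 fold change -0.76 ± 0.14 SE, adjusted p = 0.0017). SLC7A11 (chr4:138164097-138242349), its cystine-importing light chain xCT, was at 264, 165 and 177 CPM in LV-NC and at 94.2, 87.3 and 71.2 CPM in the others, 2.40-fold lower (log2 fold change -1.26 ± 0.20 SE, adjusted p = 0.00065). Neither gene overlapped between groups, and A1 was the lowest LV-NC library for SLC3A2 and the highest for SLC7A11. SLC7A5 (chr16:87830023-87869488), the leucine-importing light chain LAT1, was at 1591, 2940 and 3073 CPM in LV-NC and at 3788, 3903 and 4374 CPM in the LV-ATF7-labeled libraries. A1 stood far under its replicates, and the log2 fold change was 0.67 ± 0.24 (SE; adjusted p = 0.036). Without A1 it was 0.40 with an adjusted p of 3.6e-06, and the call was lost without any 1 of the LV-ATF7-labeled libraries (adjusted p 0.074 to 0.12) or with library size only (0.068).

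Per kilobase of exon, the level of SLC7A5 was 1.11, 1.52 and 1.62 times that of SLC3A2 in LV-NC and 3.80, 3.88 and 3.96 times in the LV-ATF7-labeled libraries. The light chain thus stood higher relative to its heavy chain in the latter, with no overlap. The same ratio for SLC7A11 was 0.091, 0.042 and 0.046 in LV-NC and 0.046, 0.043 and 0.032 in the others, which overlapped. These ratios were chosen after the values were seen and carry no test. SLC38A2 (SNAT2, a carrier of small neutral amino acids) was higher by 0.57 ± 0.14 (log2, SE; adjusted p = 0.0078). SLC7A1 (CAT1, a carrier of cationic amino acids) was at 714, 423 and 486 CPM in LV-NC and at 575, 604 and 623 CPM in the others, with A1 above and its replicates under the LV-ATF7-labeled libraries (log2 fold change 0.15 ± 0.18 SE, adjusted p = 0.49). Without A1 its log2 fold change was 0.38 with an adjusted p of 1.6e-05.

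The cytosolic tRNA synthetases, which charge tRNAs with their amino acids, had 6 of 12 members higher (50%, beside 34.7% of all genes), 0 lower (beside 32.9%) and 6 that did not pass the test, with a median log2 fold change of 0.21. With library size only, CARS1 passed as lower (log2 fold change -0.30, adjusted p = 0.014) and NARS1 no longer passed (0.19, adjusted p = 0.22). WARS1 (chr14:100333788-100376805), the tryptophanyl enzyme, which interferon also induces, was at 412, 240 and 239 CPM in LV-NC and at 633, 649 and 693 CPM in the LV-ATF7-labeled libraries. A1 lay between its replicates and the other group, and WARS1 was 2.22-fold higher (log2 fold change 1.15 ± 0.21 SE, adjusted p = 0.0017). IARS1, the isoleucyl enzyme whose promoter stretch is shown above, was at 355, 258 and 268 CPM in LV-NC and at 552, 564 and 549 CPM in the others (log2 fold change 0.92 ± 0.13 SE, adjusted p = 0.00047). LARS1, the leucyl enzyme that also senses leucine for mTORC1, was at 85.0, 96.9 and 94.0 CPM in LV-NC and at 175, 180 and 164 CPM in the others (log2 fold change 0.91 ± 0.09 SE, adjusted p = 6.9e-05). For these 3 genes every LV-ATF7-labeled library was above every LV-NC library.

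The alanyl, tyrosyl and asparaginyl enzymes AARS1, YARS1 and NARS1 were higher by less, with log2 fold changes of 0.45, 0.39 and 0.36 (adjusted p = 0.0030, 0.0047 and 0.021). The NARS1 call was lost without LV-NC replicate 2 or 3 or without LV-ATF7 replicate 1 or 2 (adjusted p 0.061 to 0.13). GARS1, SARS1, MARS1, EPRS1, TARS1 and CARS1 had log2 fold changes between -0.13 and 0.07 and did not pass the test, and GARS1, SARS1, EPRS1 and TARS1 changed sign with scaling by library size alone. Without A1, GARS1 passed at a log2 fold change of 0.16 (adjusted p = 0.031). Summed over the 12 genes, the level was 3413, 2938 and 2919 CPM in LV-NC and 4040, 4097 and 4180 CPM in the LV-ATF7-labeled libraries.

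Of the 8 cytosolic synthetases outside the members, 5 were higher (62.5%, beside 34.7% of all genes). In this list 1 was lower (12.5%, beside 32.9% of all genes) and 2 did not pass, with a median log2 fold change of 0.44. VARS1, the valyl enzyme, was 1.15 ± 0.14 higher (log2, SE), while HARS1, the histidyl enzyme, fell by 0.91 on the log2 scale (SE 0.09). Of 3 scaffold proteins of the multisynthetase complex, EEF1E1 and AIMP2 were higher (66.7%, beside 34.7% of all genes), by 1.17 and 1.01 on the log2 scale. EEF1E1 was low, at 2.30, 4.35 and 2.14 CPM in LV-NC and 7.42, 7.29 and 5.20 CPM in the LV-ATF7-labeled libraries. Other genes share 18.65% of EEF1E1 and 28.9% of AIMP2 exon bases, and AIMP2 was 1.73-fold lower in A1 than in A2 and A4. AIMP1 did not pass. The 16 mitochondrial synthetases tested gave no common direction, with 4 higher, 4 lower and a median of -0.14. Each direction thus held 25%, where 34.7% of all genes were higher and 32.9% lower. PARS2, EARS2 and FARS2 were higher by 1.11, 0.88 and 0.70. Without A1, the numbers called in these lists were 7, 3 and 12, and the mitochondrial count was 8 with A1. All genes called numbered 10011 without A1 and 8429 with it.

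**Figure D3:**
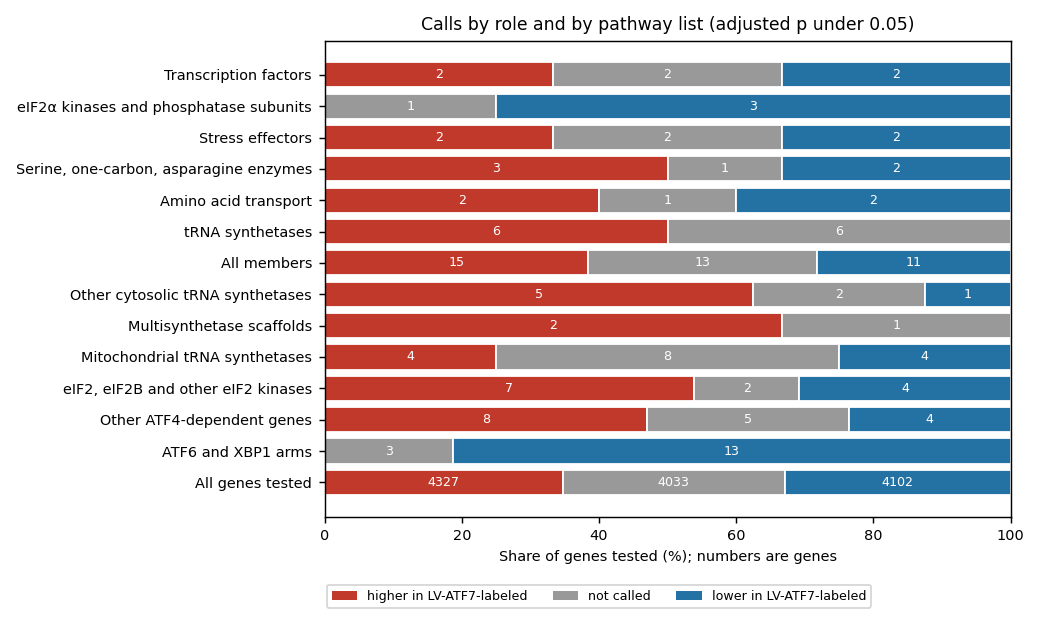
Share of genes tested that were higher, not called or lower in the libraries labeled LV-ATF7, for each role among the members and for each related pathway list, with gene numbers in the bars and all 12462 genes tested at the bottom. The ATF6 and XBP1 arms show 13 lower and 0 higher genes of 16, and the member synthetases 6 higher and 0 lower of 12.

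Of 13 genes for eIF2 subunits, its exchange factor eIF2B and other kinases and regulators, 7 were higher (53.8%, beside 34.7% of all genes). In this list 4 were lower (30.8%, beside 32.9%) and 2 did not pass, with a median log2 fold change of 0.22. IMPACT, an inhibitor of GCN2 activation, was higher by 1.32 ± 0.13 (log2, SE), while the eIF2B subunit genes EIF2B3 and EIF2B2 fell by 1.09 and 0.84. Of 17 other ATF4-dependent genes tested out of 19 listed, 8 were higher (47.1%), 4 lower (23.5%) and 5 did not pass, with a median of 0.64. The share called was 70.6%, close to the 67.6% of all genes. The proline synthesis enzyme PYCR1 was at 7.82, 3.30 and 3.59 CPM in LV-NC and at 99.2, 93.8 and 112 CPM in the LV-ATF7-labeled libraries, 20.7-fold higher (log2 fold change 4.37 ± 0.31 SE, adjusted p = 1.2e-05). No library of either group came near those of the other, and 29.7% of PYCR1 exon bases are shared with other genes. MTHFD1L, a mitochondrial one-carbon enzyme, was 6.10-fold higher (log2 fold change 2.61 ± 0.11 SE, adjusted p = 1.5e-06), and the secreted peptide gene ADM2 had a log2 fold change of 3.42 ± 0.39 (adjusted p = 0.00013) at 0.70 CPM or less in every LV-NC library.

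The ATF6 and XBP1 arms of the unfolded protein response differed from the ATF4 branch in that no gene was higher, beside 34.7% of all genes. Of 16 genes, 13 were lower (81.2%, beside 32.9% of all genes) and 3 did not pass, with a median log2 fold change of -1.06. DNAJB9, a co-chaperone induced through XBP1, was at 109, 87.5 and 81.6 CPM in LV-NC and at 16.8, 16.1 and 12.7 CPM in the LV-ATF7-labeled libraries (log2 fold change -2.61 ± 0.16 SE, adjusted p = 6.5e-06). The groups were far apart. DNAJC3, a luminal co-chaperone and PERK inhibitor, fell by 1.59 on the log2 scale (SE 0.09, adjusted p = 4.2e-06) and the luminal chaperone HYOU1 by 1.497 (SE 0.10, adjusted p = 7.8e-06). The difference between this list and the members was not tested, and the lists were drawn up with earlier results of these data known.

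Library A1 was then set against A2 and A4 for each member. A member was counted when A1 was at least 1.5-fold above or below the mean log2 CPM of A2 and A4 (a prior count of 2 added) and outside their range. Since A1 was singled out from measured values and is 1 library, these are descriptions with no test. A1 was higher for 14 of 39 members, or 35.9%, beside 11.9% of all genes, and lower for 1 member, or 2.6%, beside 11.5% of all genes. It lay above the mean of A2 and A4 by any amount for 33 members (84.6%, beside 51.0% of all genes), with a median difference of 0.42 log2 units over the members and 0.01 over all genes. A2 and A4 themselves differed by at most 0.22 log2 units for any member. At a 2-fold limit, 2 members remained, CHAC1 and ASNS, beside 3.68% of all genes.

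**Figure D4:**
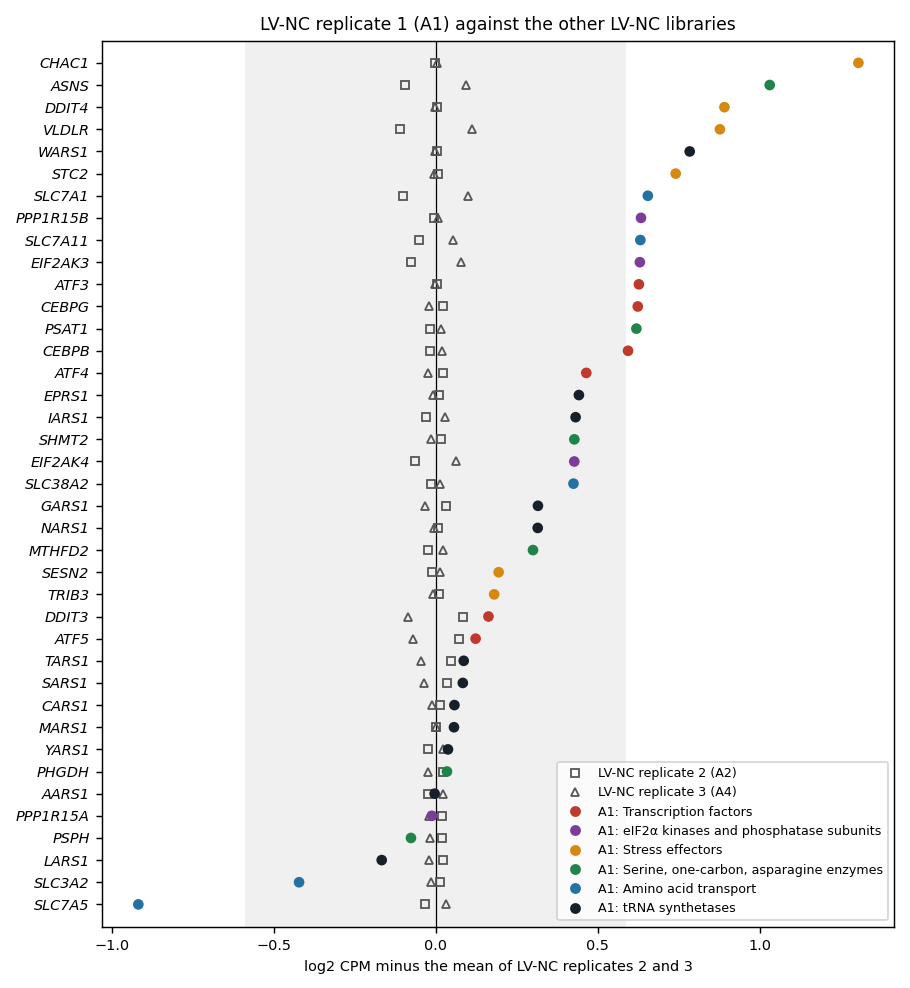
Log2 CPM of each member in the 3 LV-NC libraries, relative to the mean of replicates 2 and 3, sorted by the value of replicate 1 (A1, filled and colored by role), with the range under 1.5-fold shaded. CHAC1 and ASNS stand above 1 log2 unit, SLC7A5 is the only member beyond the shading on the lower side, and replicates 2 and 3 stay near 0.

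The members that stood out in A1 came from every role. CHAC1 was 2.47-fold higher in A1 (1.30 log2 units), ASNS 2.04-fold, DDIT4 1.85-fold, VLDLR 1.84-fold, WARS1 1.72-fold and STC2 1.67-fold. ATF3, CEBPB, CEBPG, EIF2AK3, PPP1R15B, PSAT1, SLC7A11 and SLC7A1 were higher by 0.59 to 0.65 log2 units, and ATF4 by 0.46, under the limit. By role, 4 of 6 stress effectors (66.7%), 3 of 6 transcription factors (50%) and 2 of 4 kinase and phosphatase genes (50%) were higher. So were 2 of 6 serine, one-carbon and asparagine enzymes (33.3%) and 2 of 5 transporters (40%), beside 11.9% of all genes. WARS1 was the only 1 of 12 member synthetases to be higher (8.3%), and their median difference was 0.09. Of the 14 members with the TGATGNAA core, 6 were higher in A1, as were 7 of the 20 with a window and no core.

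SLC7A5 was 1.89-fold lower in A1, and its partner SLC3A2 1.34-fold lower. PPP1R15A, the member that differed most between groups, lay within the range of A2 and A4 in A1, as did AARS1. The 8 cytosolic synthetases outside the members all lay below A2 and A4 in A1, with a median of -0.26 log2 units and none past the limit. Of the 17 other ATF4-dependent genes tested, 8 were higher in A1 (47.1%, beside 11.9% of all genes) and 1 was lower (5.9%, beside 11.5%). Their median was 0.57. Of the 16 genes of the ATF6 and XBP1 arms, 2 were higher and 2 lower (12.5% each), close to the shares of all genes, with a median of 0.07. In the same library KRT5 was 1.81 and KRT14 4.63 log2 units below A2 and A4. Whether the markers and the stress genes moved together for a shared reason was not tested.

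The direction of the A1 difference and that of the group difference were not the same for each gene. ATF3, EIF2AK3, PPP1R15B, ASNS and SLC7A11 were higher in A1 and lower in the LV-ATF7-labeled libraries, so leaving A1 out made their group differences smaller. DDIT4, STC2, CEBPG and WARS1 were higher in A1 and higher in the LV-ATF7-labeled libraries, and leaving A1 out made their group differences larger, to 1.81, 0.93, 0.70 and 1.44 on the log2 scale. Without A1, 31 members passed the test, 20 higher and 11 lower, and none of the 26 calls was lost. The median log2 fold change was then 0.16 over the members and -0.01 over all genes, where with A1 it was 0.05 and 0.00. The size of the members' median thus depended on A1. The shares of all genes in each direction were not counted for this fit. Of all genes, 10011 passed without A1 and 8429 with it, so the gain in calls was not particular to the members. The 5 added calls were ATF4, EIF2AK4, PSAT1, SLC7A1 and GARS1, all higher in the LV-ATF7-labeled libraries.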

How the data were processed

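Poly(A) mRNA from HaCaT cells was sequenced by the authors as 6 libraries, 3 labeled LV-NC and 3 labeled LV-ATF7. The values used are whole-number counts of reads per gene as deposited by the authors. Their table also holds FPKM values and the authors' own fold changes and p-values, which were not used. The submitters' processing notes name GRCh38. The aligner, the counting program and its handling of strand are not given in the sources used here. Every count column was assigned to a library.

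Groups are those of the labels. Counts were scaled by TMM, filtered with filterByExpr (37 genes left out) and tested with edgeR 4.0.16 (glmQLFit, glmQLFTest) in R 4.3.3 without covariates, with Benjamini-Hochberg adjustment over 12462 genes and a threshold of 0.05, two-sided. The standard error was derived from the size of the log2 fold change and the root of its F value. The count test was tried on simulated data with far fewer changed genes than were called here and with no outlying library. Its behavior in a setting like the present one was not tested. At total counts of 16686472 to 20562768 per library, the spread between replicates includes counting error, which weighs most for genes of a few CPM. Gene positions and exon overlaps are from GENCODE 29 (GRCh38, 12485 of 12499 identifiers matched), and promoter windows from RefSeq (GRCh38.p14). LARS1, NUPR1, PSPH, SHMT2, SLC7A11 and YARS1 had no window in the table used.

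Values in every library are given for all transcription factors and the eIF2α kinase and phosphatase genes, for members called with at least a 2-fold change and for the 10 members that differed most in A1. Up to 3 called genes with the largest change in each pathway list are named with their log2 fold changes, except for a gene that is not reported here. Values in every library of SESN2, PHGDH, PSAT1, SLC3A2, IARS1 and LARS1 were added after they were seen, as were the fold changes of EIF2AK1, EIF2AK2 and EIF2S1. The members and all lists were chosen with earlier results of these data known. Same-numbered libraries of the groups did not deviate together (correlations 0.058, -0.021 and 0.065), so the replicate numbers were not used to pair them. Alternatives were scaling by library size only or by upper quartile, DESeq2 1.42.0, other filters, limma 3.58.1 voom with quality weights, the replicate block and each library left out in turn.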

Additional observations from a re-analysis of the deposited data

How the results depend on the processing

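Each of the 39 members was tested under 13 alternatives, 507 values in all, of which 436 kept their direction and side of the threshold, 16 newly passed, 28 no longer passed and 27 changed sign. Of the 26 called members, 19 kept their call in every alternative, and no called member changed sign. All genes called numbered 8429 in the fit used above, 8420 with DESeq2, 8559 with library size only and 8408 with upper quartile scaling. They numbered 8457 with no filter, 7713 with at least 10 counts, 10391 with voom and 10011 without A1. The members called numbered 27 with DESeq2, 22 with library size only, 25 with upper quartile scaling, 26 with no filter, 25 with at least 10 counts in every library, 33 with voom and quality weights, 19 with a fold of at least 1.5 as well, and 21 to 31 with each library left out (12 to 20 higher, 9 to 12 lower). With the replicate block 25 were called, 15 higher and 10 lower, TRIB3 alone being lost. Every replicate number had a deviation correlation under 0.1. With A1 far from its replicates, that correlation cannot show whether same-numbered libraries shared more than a number. With library size only, the members' median log2 fold change was -0.11 where that of all genes was -0.16, CEBPG (0.31), NARS1 (0.19), SLC38A2 (0.40), SLC7A5 (0.51) and STC2 (0.49) no longer passed, and CARS1 (-0.30) did. A1 stood at least 1.5-fold higher for 14 members under either other scaling, with a prior count of 0.5 or against A2 alone, and for 10 against A4 alone, and at 2-fold for 2 members higher and 0 lower. The members' median was 0.19 with voom, where that of all genes was 0.01, and 0.16 without A1, where that of all genes was -0.01. The ATF7 log2 fold change ran from -1.15 to -0.89.

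All changes of sign were in members that did not pass the test. With library size only they were ATF4 (-0.087), PSAT1 (-0.12), SLC7A1 (-0.022), GARS1 (-0.10), SARS1 (-0.13), EPRS1 (-0.16) and TARS1 (-0.11), with DESeq2 EPRS1 (-0.015), with at least 10 counts EPRS1 (-0.012) and with voom VLDLR (0.031). With each library left out, the members with a change of sign ran from -0.048 to 0.24 (ATF4), -0.34 to 0.018 (CEBPB), -0.57 to 0.0091 (VLDLR), -0.099 to 0.27 (PSAT1), -0.038 to 0.38 (SLC7A1), -0.043 to 0.16 (GARS1), -0.036 to 0.071 (SARS1), -0.076 to 0.018 (MARS1), -0.11 to 0.15 (EPRS1) and -0.026 to 0.11 (TARS1). The cause was not tested. VLDLR, at 3.40 to 7.07 CPM, was the member with the lowest level, and its difference between groups did not pass the test at this depth and spread.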
